A study of Mus musculus with 6 samples.

Results

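Ribosomal protein pseudogenes are copies of ribosomal protein genes, most of them made when a spliced messenger RNA was copied back into DNA and inserted elsewhere in the genome. The genes described here are all rows of the count table whose symbol starts with Rpl or Rps and ends in -ps or in -ps and a number, 276 of 51912 genes. Of these, 171 are named after a large-subunit protein (Rpl) and 105 after a small-subunit protein (Rps). They carry 61 parent names, and 60 of the parent genes had a row of their own. Rps12 has 23 such copies, Rpl31 22, and Rpl21, Rps19 and Rpl23a 14 each, while 19 parents have 1. RNA was measured by sequencing in hippocampus of mice of 2 inbred strains, DBA/2 and C57BL/6, with 3 libraries per strain. No treatment or engineered allele is given for either strain, and sex, age and substrain are not stated in the labels. The series was made to find genes expressed at different levels in these strains.

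A retrocopy starts as an intronless, nearly identical image of its parent's messenger RNA and then collects substitutions, so young copies resemble the parent closely and old ones do not. Of the 60 parents in the table, 58 are on the list of cytosolic ribosomal protein genes used below. Such genes are among the most strongly expressed of most cells, neurons included. A short read that matches parent and copy equally well can be placed on either, so a count listed for a copy need not be RNA made from the copy. GRCm38, the genome build used by the submitters, was assembled from C57BL/6J mice. Whether sequence particular to DBA/2 moved reads between a parent and a copy was not tested.

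The bases that separate parent and copy are few, and the pairs below are shown because their counts differ most between the strains or because parent and copy do not differ at all. Each line is a coding stretch of 90 bases, 5′ to 3′, taken from GENCODE M21 transcripts (GRCm38), and capitals mark the bases at which copy and parent differ. The stretch of Rpl3-ps1 lies at chrX:13202572-13202661 on the plus strand. That of Rpsa-ps10 lies at chr3:150073324-150073413 on the minus strand, that of Rpl15-ps2 at chr9:72060949-72061038 on the plus strand, and that of Rpl38-ps2 at chr6:140747083-140747172 on the minus strand.
Rpl3-ps1: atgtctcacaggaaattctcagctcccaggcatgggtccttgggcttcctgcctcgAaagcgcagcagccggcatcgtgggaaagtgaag
Rpl3: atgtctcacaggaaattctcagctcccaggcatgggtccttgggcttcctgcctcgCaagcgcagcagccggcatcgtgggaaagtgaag
Rpsa-ps10: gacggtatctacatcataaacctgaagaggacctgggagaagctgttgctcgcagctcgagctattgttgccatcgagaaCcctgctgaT
Rpsa: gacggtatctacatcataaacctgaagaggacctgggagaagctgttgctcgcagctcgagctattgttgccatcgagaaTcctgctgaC
Rpl15-ps2: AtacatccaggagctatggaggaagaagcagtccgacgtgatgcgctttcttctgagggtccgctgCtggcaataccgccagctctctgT
Rpl15: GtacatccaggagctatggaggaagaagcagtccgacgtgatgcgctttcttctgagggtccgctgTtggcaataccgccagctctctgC
Rpl38-ps2 and Rpl38: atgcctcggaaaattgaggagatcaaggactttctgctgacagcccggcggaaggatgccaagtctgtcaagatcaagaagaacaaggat

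Over its whole coding sequence Rpl3-ps1 differed from Rpl3 by the substitutions C57A and T786C, with the parent's base first and positions counted from 1 at the A of the start codon. Rpsa-ps10 differed from Rpsa by 6, namely C25A, T210C, C219T, C345G, C696T and G858A. Rpl34-ps1 differed from Rpl34 by T132C and C318G. The reading frame that begins at the start codon ran through all 403 codons of the parent in Rpl3-ps1, through all 295 in Rpsa-ps10 and through all 117 in Rpl34-ps1. Of the 276 copies, 274 could be aligned, and 95 held a reading frame at least as long as the longest coding sequence annotated for the parent. A shorter frame need not be a broken one. Rps12-ps3, with 132 codons beside 148 for the longest Rps12 coding sequence, is not among the 95. The annotation lists 263 copies as processed pseudogenes, 6 as transcribed processed pseudogenes and 6 as protein-coding genes, among them Rps12-ps3 and Rpl9-ps6. A single exon was annotated for 265 copies. Another gene's exon overlapped 9, 77 lay only in introns, and 189 overlapped no other gene.

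Copies with counts were the ones most like their parents. Among the 57 copies at least 99% identical to the parent transcript over the aligned part, 50 (87.7%) had 10 or more counts over the 6 libraries, and 3 had none. Of the 104 copies with 95% to under 99% identity, 34 (32.7%) had 10 or more counts. In the class from 90% to under 95% it was 6 of 59 (10.2%), and under 90% it was 6 of 54 (11.1%), of which 46 had none. Copies with 10 or more counts had a median of 4 mismatches to the parent, and copies with fewer had a median of 22. A read of 100 bases was taken as a yardstick, since the read length is not given in the sources used here. Of all 100-base stretches of a copy, a median of 42.6% also occurred in the parent's transcripts for copies with 10 or more counts, and 0% for copies with fewer. The identity was aligned to the parent transcript with the longest coding sequence, and 274 copies could be aligned.

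**Figure D1:**
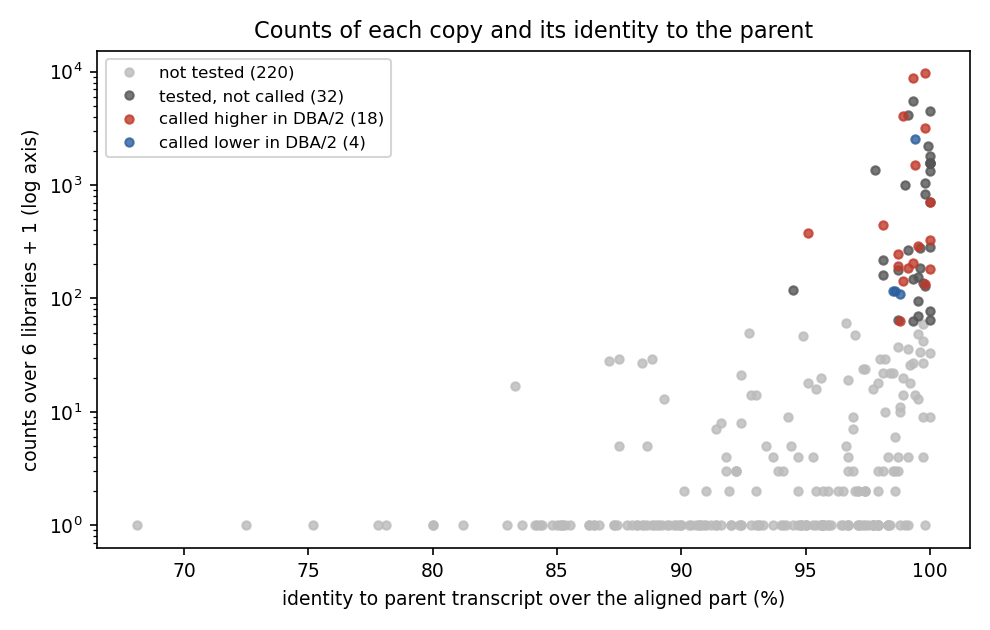
Counts over the 6 libraries plus 1 (log axis) of the 274 aligned copies against identity to the parent transcript in percent. Grey points were not tested, dark points were tested and not called, and coloured points were called higher (18) or lower (4) in DBA/2. Of the copies with 100 or more counts, 33 sit at or above 99% identity, 13 from 95% to under 99%, and 1 below.

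The table listed 0 counts in every library for 123 copies (44.6%), a share that was 38.9% over all genes. A further 56 had 1 to 9 counts, 50 had 10 to 99, 30 had 100 or more but under 1000, and 17 had 1000 or more. The 10 most abundant copies held 69.6% of all counts on copies, and the top 2, Rpl3-ps1 and Rpsa-ps10, held 27.6%. No copy was at 0 in one strain and at 10 or more counts in the other. Where a library had 0 counts, up to 3 are allowed by counting error alone, which is 0.149 to 0.217 CPM depending on the library.

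Total counts were 16912153, 16807559 and 13839366 in the DBA/2 libraries and 16826010, 13867280 and 20185683 in the C57BL/6 libraries. Markers of dentate granule, CA1 and CA3 neurons were counted in every library. Summed thalamus and habenula markers came to 113 to 154 CPM in DBA/2 and 246 to 345 CPM in C57BL/6. Myelin markers came to 4110 to 5530 CPM in DBA/2 and 6060 to 7570 CPM in C57BL/6, and choroid plexus markers to 1230 to 2700 CPM in DBA/2 and 663 to 1490 CPM in C57BL/6. The part of these differences in the results was not tested. In bulk tissue, fewer cells of a type and less RNA per cell cannot be told apart.

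The copies took a larger share of ribosomal protein family counts in DBA/2. The 276 copies together had 878, 809 and 844 CPM (counts scaled to a common total) in the DBA/2 libraries, against 520, 543 and 499 in the C57BL/6 libraries. Their 60 parents together had 3089, 2708 and 3029 CPM in DBA/2, against 3751, 3877 and 3574 in C57BL/6. Copies were higher and parents lower in every DBA/2 library than in any C57BL/6 library. Copies made up 22.1%, 23.0% and 21.8% of copies and parents combined in DBA/2, against 12.2%, 12.3% and 12.3% in C57BL/6. The means were 22.3 ± 0.628% and 12.2 ± 0.0554% (SD, n = 3 each), and the difference of 10.1 percentage points had a two-sided exact permutation p of 0.1, the smallest that 3 libraries against 3 can give. Most of it came from a pair of families. Without Rpl3 and Rpsa and their copies, a choice made after seeing the data, the shares were 15.2 ± 0.753% in DBA/2 and 12.0 ± 0.096% in C57BL/6, a difference of 3.18 points. The sum of copies and parents was 3786 ± 237 CPM in DBA/2 and 4255 ± 174 CPM in C57BL/6. Copies with Gm or clone names enter neither the shares nor this sum, and a total with them was not computed. The lower sum is therefore not a measure of all RNA of these families.

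Of the 276 copies, 54 had enough counts to be tested, and 22 were called at an adjusted p under 0.05 in the quasi-likelihood test of edgeR, adjusted by the Benjamini-Hochberg method. Of these, 18 were higher in DBA/2 and 4 lower. Over all 17517 genes tested, 22.8% were called, 9.09% higher and 13.7% lower. The share among tested copies was 40.7%, with 33.3% higher and 7.41% lower, but copies enter the test only with enough counts in at least one strain, so these shares describe the tested copies alone. Among tested copies, 41 of 54 had a log2 fold change above 0, and the median was 0.24, beside 0.00 over all genes tested. The strains did not overlap for 26 of the tested copies, 20 higher and 6 lower in DBA/2. Over all genes tested, 36.8% did not overlap, 16.7% higher and 20.1% lower. The higher calls depended on 1 library, since without DBA/2 replicate 1 they numbered 10 of 15 calls in place of 18 of 22. Of the called copies, 10 changed by at least 1 on the log2 scale, and 5.21% of all genes tested were called with such a change.

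Parents of called copies differed in the direction of the copy in some cases and in the opposite direction in others. The parent was called lower beside 8 of the 18 higher copies, higher beside 3, and was not called beside 7. All 4 lower copies had a parent that was called lower. Copy and parent were counted in the same libraries and can share reads, so these counts are descriptions. The 60 parents had 3 higher and 16 lower calls and a median log2 fold change of -0.01. Of the 79 cytosolic ribosomal protein genes, 4 were higher and 19 lower. Among them, 18 of the 58 with a -ps copy were called, and 5 of the 21 without one. The share called among all 17517 genes tested was 22.8%, with 9.09% higher and 13.7% lower. Whether having a copy goes with a call was not tested.

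**Figure D2:**
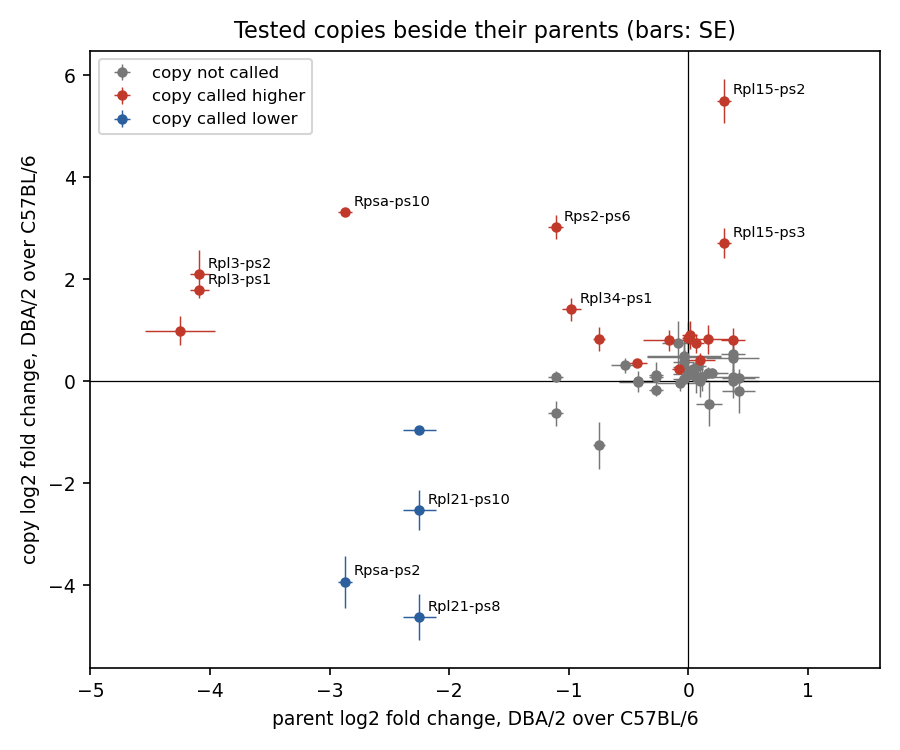
Log2 fold change, DBA/2 over C57BL/6, of each of the 54 tested copies (vertical axis) against that of its parent (horizontal axis), with bars for the standard error. Red copies were called higher, blue ones lower, and grey ones were not called. Rpl3-ps1, Rpl3-ps2, Rpsa-ps10, Rps2-ps6 and Rpl34-ps1 lie in the upper left, where the copy was higher and the parent lower in DBA/2, while Rpsa-ps2 and 3 copies of Rpl21 called lower lie in the lower left.

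In the Rpl3 family the copies were higher and the parent lower in DBA/2. Rpl3, a large-subunit protein close to the peptidyl transferase centre, has 2 copies in the table, both on chromosome X. Rpl3-ps1 (ENSMUSG00000084349, chrX:13202571-13203780) had 2592, 2540 and 2265 counts in the DBA/2 libraries, against 770, 663 and 806 in the C57BL/6 libraries. Its parent Rpl3 (chr15:80077791-80091868) had 164, 137 and 97 counts in DBA/2, against 2313, 1969 and 2842 in C57BL/6. Every DBA/2 library was far above every C57BL/6 library for the copy and far below for the parent. In CPM scaled by TMM factors, which is the CPM scale used below, the copy averaged 155 ± 7.22 in DBA/2 and 45.0 ± 4.23 in C57BL/6 (SD, n = 3 each). Its log2 fold change was 1.79 ± 0.06 (SE), with an adjusted p of 6.75e-16 in edgeR. Per length, the copy stood at 129 ± 5.55 FPKM in DBA/2 beside 2.66 ± 0.432 FPKM for Rpl3. In C57BL/6 the copy stood at 36.8 ± 3.38 FPKM beside 44.9 ± 0.752 FPKM for Rpl3. FPKM divides by the deposited exonic length, which is longer for Rpl3 than for Rpl3-ps1, and this raises the copy beside the parent. Of its 100-base stretches, 85.8% occurred in transcripts of Rpl3. Rpl3-ps2, with 18, 12 and 20 counts in DBA/2 and 4, 5 and 3 in C57BL/6, was also higher, by 2.10 ± 0.47 on the log2 scale (adjusted p 0.00164). Copies held 94.1%, 94.9% and 95.9% of the family's counts in DBA/2, against 25.1%, 25.3% and 22.2% in C57BL/6. With copies and parent added, the log2 fold change was -0.18 ± 0.05 (adjusted p 0.0068, edgeR).

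Rpsa, a small-subunit protein also described as a precursor of the laminin receptor, showed the same arrangement. Its copy Rpsa-ps10 (ENSMUSG00000047676, chr3:150072658-150073542) had 2916, 2551 and 2411 counts in DBA/2, against 274, 241 and 321 in C57BL/6. Rpsa itself (chr9:120127689-120132369) had 666, 559 and 455 counts in DBA/2, against 4363, 3566 and 4971 in C57BL/6. The strains were again fully apart for each gene, in opposite directions. The copy averaged 165 ± 12.9 CPM in DBA/2 and 16.7 ± 0.796 CPM in C57BL/6, a log2 fold change of 3.31 ± 0.07 (adjusted p 1.06e-20, edgeR). Per length the copy stood at 188 ± 14.1 FPKM in DBA/2 beside 11.1 ± 1.15 FPKM for Rpsa. In C57BL/6 the copy stood at 18.7 ± 0.867 FPKM beside 80.2 ± 2.2 FPKM for Rpsa. The deposited exonic length of Rpsa is again longer than that of the copy. Rpsa-ps2, on chromosome 10, ran the other way, with 5, 1 and 0 counts in DBA/2 and 31, 22 and 50 in C57BL/6 (log2 fold change -3.93 ± 0.51, adjusted p 2.57e-06). Another copy, Rpsa-ps9, had too few counts to be tested, 6, 9 and 8 in DBA/2 and 1, 2 and 2 in C57BL/6. Copies held 82.6 ± 1.41% of the family's counts in DBA/2 and 6.91 ± 0.237% in C57BL/6. The family sum was lower in DBA/2 by -0.46 ± 0.05 on the log2 scale (adjusted p 3.68e-07), a smaller difference than that of Rpsa alone, -2.87 ± 0.06.

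**Figure D3:**
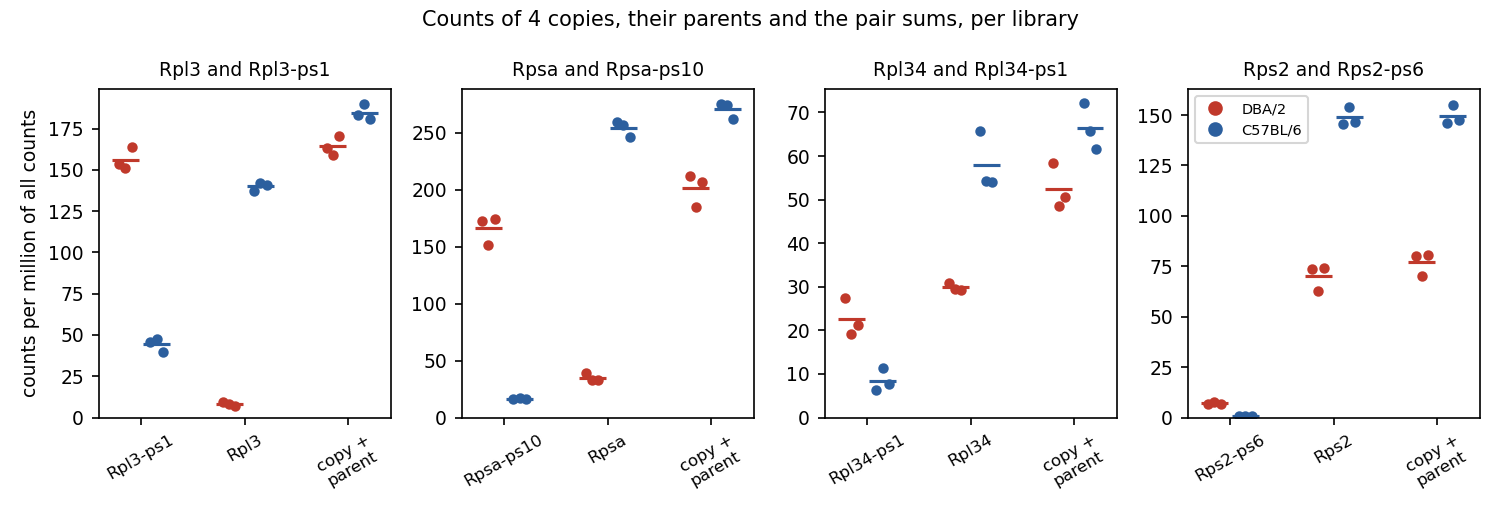
CPM, as counts per total, in each library (points) and their mean (line) for 4 copies, their parents and the sum of the pair, DBA/2 in red and C57BL/6 in blue. In the Rpl3 and Rpsa pairs the copy was the larger part in every DBA/2 library and the parent the larger part in every C57BL/6 library, while the sums lay closer together than either gene.

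Rpl34 and Rps2 had copies that were higher beside lower parents, on a smaller scale. Rpl34-ps1 had 463, 323 and 293 counts in DBA/2, against 108, 157 and 156 in C57BL/6, and the large-subunit gene Rpl34 had 524, 494 and 406 counts in DBA/2, against 1105, 754 and 1089 in C57BL/6. The groups did not overlap for either. Log2 fold changes were 1.41 ± 0.22 for the copy (adjusted p 0.00314) and -0.98 ± 0.08 for the parent (1.01e-09), and the sum differed by -0.36 ± 0.07 (0.000934, all from edgeR). Rps2-ps6 had 112, 128 and 94 counts in DBA/2, against 9, 14 and 20 in C57BL/6, a log2 fold change of 3.02 ± 0.23 (adjusted p 3.64e-10). Rps2, a small-subunit protein near the entry of the messenger RNA, differed by -1.11 ± 0.06. Here the sum stayed close to the parent at -0.85 ± 0.06, since copies held 25.3 ± 0.92% of the counts in DBA/2 and 10.4 ± 0.407% in C57BL/6. A second Rps2 copy, Rps2-ps13, with 265, 201 and 210 counts in DBA/2 and 221, 194 and 252 in C57BL/6, was not called (log2 fold change 0.09 ± 0.11, adjusted p 0.642).

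Rpl14, Rps15a and Rps18 were the other families with a higher copy and a lower parent. Rpl14-ps1 had 798, 838 and 603 counts in DBA/2, against 575, 503 and 770 in C57BL/6, or 46.5 ± 2.97 CPM in DBA/2 and 36.6 ± 1.9 CPM in C57BL/6 (log2 fold change 0.35 ± 0.07, adjusted p 0.00047). Rpl14, a large-subunit gene, differed by -0.43 ± 0.08, and the sum of the pair by 0.03 ± 0.06 (adjusted p 0.787). Rps15a-ps7, a copy of a small-subunit gene, averaged 3.19 ± 0.458 CPM in DBA/2 and 1.78 ± 0.299 CPM in C57BL/6, with a log2 fold change of 0.83 ± 0.23 (adjusted p 0.00958). The call was lost without DBA/2 replicate 1 (0.0576). Its parent Rps15a averaged 79.5 ± 1.93 CPM in DBA/2 and 134 ± 3.42 CPM in C57BL/6 (-0.75 ± 0.05), and the sum differed by -0.71 ± 0.05. Rps18-ps3 had 36, 47 and 51 counts in DBA/2, against 32, 12 and 28 in C57BL/6 (log2 fold change 0.99 ± 0.28, adjusted p 0.0128). This call was lost without DBA/2 replicate 3 (0.0764) or C57BL/6 replicate 2 (0.0619). Rps18, a small-subunit protein of the head of the ribosome, had 64, 40 and 43 counts in DBA/2, against 786, 1029 and 1092 in C57BL/6. The rise on Rps18-ps3 was far smaller in counts than the deficit on Rps18, and the sum of named genes differed by -3.35 ± 0.23. With the unnamed copies Gm26619 and AL607105.1, which share its sequence, the family differed by -0.44 ± 0.16 and was not called (adjusted p 0.116, edgeR).

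Rpl15, a large-subunit protein, was higher in DBA/2 together with 2 of its 5 copies. The other copies had 1 count in each strain (Rpl15-ps5) or none (Rpl15-ps1 and Rpl15-ps4). Rpl15-ps2 (chr9:72060937-72061549) had 66, 73 and 50 counts in DBA/2, against 3, 0 and 1 in C57BL/6, the largest fitted change among called copies, 5.50 ± 0.43 on the log2 scale (adjusted p 6.64e-10). It lies in an intron of Tcf12 on the opposite strand, and Tcf12, a transcription factor gene, averaged 68.5 ± 3.58 CPM in DBA/2 and 72.0 ± 2.92 CPM in C57BL/6. Rpl15-ps3, identical to Rpl15 over its whole length, had 59, 52 and 46 counts in DBA/2, against 8, 5 and 12 in C57BL/6 (log2 fold change 2.71 ± 0.29, adjusted p 1.44e-07). Both of these copies were higher in every DBA/2 library than in any C57BL/6 library. Rpl15 averaged 57.3 ± 0.521 CPM in DBA/2 and 46.6 ± 1.7 CPM in C57BL/6, a log2 fold change of 0.30 ± 0.06 (adjusted p 0.000477). The sum was higher by 0.46 ± 0.06, and by 0.93 ± 0.06 with the unnamed copies Gm10020 and Gm4294.

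Rpl21, a large-subunit gene, held 3 of the 4 lower copies. Rpl21-ps15, on chromosome X in an intron of Wnk3, had 322, 265 and 254 counts in DBA/2, against 565, 484 and 659 in C57BL/6 (log2 fold change -0.95 ± 0.08, adjusted p 5.4e-09). Wnk3, a kinase gene, averaged 49.2 ± 5.25 CPM in DBA/2 and 50.2 ± 2.82 CPM in C57BL/6. Rpl21-ps10 had 6, 2 and 8 counts in DBA/2, against 29, 31 and 39 in C57BL/6 (-2.53 ± 0.39, adjusted p 2.84e-05). Rpl21-ps8 had 2, 1 and 1 counts in DBA/2, against 38, 31 and 43 in C57BL/6 (-4.62 ± 0.45, adjusted p 2.86e-08, edgeR). All of them were below C57BL/6 in every DBA/2 library, as was Rpl21, with 65, 46 and 50 counts in DBA/2 and 273, 225 and 305 in C57BL/6. Rpl21-ps8 lies in an intron of the myelin gene Mbp on the opposite strand, and Mbp averaged 2620 ± 346 CPM in DBA/2 and 3470 ± 400 CPM in C57BL/6, a smaller difference that was not called (log2 fold change -0.40, adjusted p 0.109). Per length Rpl21-ps15 stood at 36.7 ± 3.58 FPKM in DBA/2 beside 0.997 ± 0.174 FPKM for the parent. In C57BL/6 the copy stood at 69.8 ± 2.35 FPKM beside 4.66 ± 0.191 FPKM for the parent. In summed counts the gap was smaller, with 841 beside 161 in DBA/2 and 1708 beside 803 in C57BL/6. The deposited exonic length of Rpl21 is longer than that of the copy, which raises the copy in FPKM. The family sum was lower in DBA/2 by -1.34 ± 0.08 for the named genes and by -0.64 ± 0.06 with all 14 genes joined by sequence.

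A group of copies was higher in DBA/2 beside a parent that was not called, and all of these calls but that of Rps23-ps1 were lost on leaving out some 1 library. Rpl19-ps11, the most abundant, had 622, 571 and 473 counts in DBA/2, against 486, 396 and 599 in C57BL/6 (0.24 ± 0.07, adjusted p 0.0135, but 0.069 without DBA/2 replicate 1). Rps23-ps1, identical to Rps23 over its whole length, had 81, 65 and 57 counts in DBA/2, against 41, 33 and 48 in C57BL/6 (0.80 ± 0.20, adjusted p 0.00383). An exon of Gm5148 overlaps it on the opposite strand, and Gm5148 was lower in DBA/2, 6.4 ± 0.492 CPM, than in C57BL/6, 11.0 ± 1.31 CPM. Whether the counting used strand is not given in the sources used here. Rpl28-ps1, also identical to its parent, averaged 8.22 ± 0.668 CPM in DBA/2 and 6.17 ± 0.223 CPM in C57BL/6 (0.42 ± 0.14, adjusted p 0.0284), and its call was lost on leaving out any library but DBA/2 replicate 3 (adjusted p up to 0.102). Rps19-ps6 averaged 5.69 ± 1.2 CPM in DBA/2 and 3.44 ± 0.626 CPM in C57BL/6 (0.74 ± 0.19, adjusted p 0.0062, but 0.0542 without DBA/2 replicate 1). Rps26-ps1, Rps25-ps1 and Rps27a-ps2 had log2 fold changes of 0.91 ± 0.27, 0.85 ± 0.31 and 0.82 ± 0.29, with adjusted p of 0.0149, 0.0486 and 0.0456. The call of Rps26-ps1 was lost without DBA/2 replicate 1 (0.0709), DBA/2 replicate 2 (0.0516) or C57BL/6 replicate 3 (0.0844). Rps25-ps1 and Rps27a-ps2 were not called on leaving out any library, with adjusted p up to 0.262 and 0.193. Rpl10-ps5 averaged 3.7 ± 0.899 CPM in DBA/2 and 2.15 ± 0.391 CPM in C57BL/6 (0.81 ± 0.23, adjusted p 0.0121), lost without DBA/2 replicate 1 (0.0851) or C57BL/6 replicate 3 (0.0774). Its parent Rpl10, a large-subunit protein that joins late in ribosome assembly, was called higher too, by 0.37 ± 0.10.

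Several of the most abundant copies were not called. Rpl17-ps10 had 969, 951 and 730 counts in DBA/2 and 996, 763 and 1039 in C57BL/6 (log2 fold change -0.01 ± 0.06, adjusted p 0.914). Rps12-ps3, annotated as protein-coding, had 837, 749 and 669 counts in DBA/2 and 747, 665 and 845 in C57BL/6 (0.06 ± 0.07, adjusted p 0.561). The groups overlapped for both. Rps10-ps2 averaged 43.0 ± 2.02 CPM in DBA/2 and 41.9 ± 2.79 CPM in C57BL/6, Rpl9-ps6 23.8 ± 3.03 CPM in DBA/2 and 21.8 ± 0.736 CPM in C57BL/6, and Rpl31-ps8 19.4 ± 1.56 CPM in DBA/2 and 17.2 ± 0.882 CPM in C57BL/6. Their log2 fold changes were 0.04 ± 0.07, 0.12 ± 0.09 and 0.17 ± 0.09, and none was called. In the counts listed, these copies were not minor beside their parents. All 100-base stretches of Rps12-ps3 and of Rpl31-ps8 also occur in transcripts of the parent. The split of such a pair can therefore come from how reads were placed, and RNA made from the copy was not measured apart. Per length, Rps12-ps3 stood at 96.1 ± 5.22 FPKM in DBA/2 beside 3.63 ± 0.125 FPKM for Rps12. In C57BL/6 it stood at 90.6 ± 6.19 FPKM beside 2.68 ± 0.146 FPKM. In summed counts the gap was smaller, with 2255 beside 350 in DBA/2 and 2257 beside 274 in C57BL/6. A copy had a higher mean FPKM than its parent in 22 cases in DBA/2 and in 19 in C57BL/6. These cases depend on the deposited exonic lengths, and that of Rps12 is longer than that of Rps12-ps3. Copies held over 50% of the counts in both strains in 10 families, those of Rpl14, Rpl17, Rpl21, Rpl31, Rpl36a, Rpl38, Rps6, Rps10, Rps12 and Rps13.

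There were 11 copies that matched the parent transcript with the longest coding sequence over their whole length without a substitution or gap. All 11 had 10 or more counts. They are Rpl38-ps2, Rpl36a-ps2, Rps6-ps4, Rps16-ps2, Rpl28-ps1, Rpl10a-ps1, Rps23-ps1, Rps13-ps2, Rpl15-ps3, Rpl27-ps3 and Rpl10-ps1. In such a pair a read from within the copy carries no base that tells it from the parent. Copies outside the list can be as close when other transcripts of the parent are counted. For Rps12-ps3 and Rpl31-ps8, 100% of the 100-base stretches occurred in transcripts of the parent. Rpl38-ps2, whose sequence is given above, had 262, 232 and 263 counts in DBA/2 and 284, 264 and 263 in C57BL/6, while Rpl38 had 230, 167 and 144 in DBA/2 and 213, 199 and 174 in C57BL/6. Both genes of this identical pair were listed with counts in every library. Of the 10 listed copies that were tested, 3 were called higher in edgeR. Rps6-ps4 was not called (0.31 ± 0.14, adjusted p 0.116), its parent Rps6, the classic target of S6 kinases, was called lower (-0.53 ± 0.12, adjusted p 0.00124), and the family sum differed by 0.00 ± 0.09 (adjusted p 0.989).

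The split between copies and parent differed most in a minority of families. Among 54 families with a count on a copy, the copy share did not overlap between the strains in 22, and it was higher in DBA/2 in 20 of them. The exceptions were Rps12, with 86.9 ± 0.188% in DBA/2 and 89.5 ± 0.174% in C57BL/6, and Rps27, whose copy had 0 counts in each DBA/2 library and 1 in each C57BL/6 library. A copy share cannot be computed for all genes. In CPM, 36.8% of all genes tested did not overlap, 16.7% higher and 20.1% lower in DBA/2. Some of the 22 families rest on few copy counts, as in Rpl5, with 8, 8 and 5 in DBA/2 and 3, 2 and 3 in C57BL/6. The shares use the same counts as the calls above, so they are descriptions. In 14 families the means differed by more than 5 percentage points. After Rpsa and Rpl3 the largest differences were in Rps18, with 48.1 ± 10.5% in DBA/2 and 2.52 ± 1.38% in C57BL/6, and in Rpl34, with 42.8 ± 3.76% in DBA/2 and 12.9 ± 4.18% in C57BL/6.

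**Figure D4:**
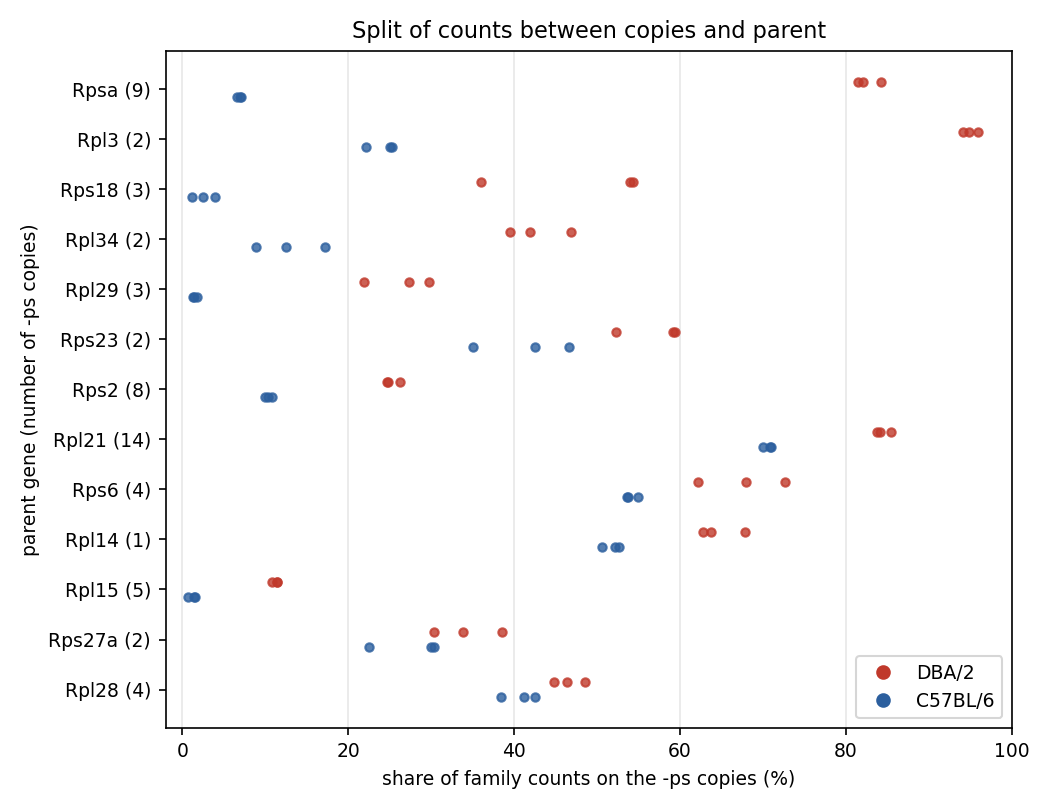
Share of each family's counts on its -ps copies in percent, 1 point per library, DBA/2 in red and C57BL/6 in blue, for 13 families whose means differ by more than 5 percentage points. Numbers in brackets are the -ps copies of each parent. Rpsa and Rpl3 stand apart, with over 80% on copies in every DBA/2 library and under 30% in every C57BL/6 library.

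Adding the counts of all named copies to their parents left 16 of 60 families called in edgeR, 2 higher and 14 lower, where 22.9% of all rows of that table were called, 9.23% higher and 13.6% lower. The higher ones were Rpl15 and Rpl10 (0.47 ± 0.09, adjusted p 0.000588). Without DBA/2 replicate 2 there were 7 higher families. For Rpl14, Rps6 and Rps12 the parent was called and the sum was not. Rpl14 and Rps6 had been lower and Rps12 higher (0.42 ± 0.14, adjusted p 0.0349, against 0.11 ± 0.06 and 0.255 for its sum). For other parents the named copies held almost no counts, and adding them changed little. Rps7 and Rplp0 differed by -1.70 ± 0.08 and -1.54 ± 0.07, alone and with their copies. When genes were joined by sequence in place of name, which brings in copies with Gm or clone names, Rps7 with Gm9493, Gm6472 and Gm7285 differed by -0.11 ± 0.06 (adjusted p 0.198) and Rplp0 with Gm8730 and Gm9625 by -0.38 ± 0.07 (adjusted p 0.000364). Of the 60 named families, 43 fell in such a sequence family, and 11 of these were called, where 22.3% of all rows were, 8.8% higher and 13.5% lower.

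Too few counts kept 222 copies out of the test, 99 of them with at least 1 count. Of the 43 untested copies with 10 or more counts, the strains did not overlap in 5 (11.6%), all higher in DBA/2. Over the 5270 untested genes with 10 or more counts, 20.5% did not overlap, 7.69% higher and 12.8% lower in DBA/2. Rpsa-ps9 summed to 23 counts in DBA/2 and 5 in C57BL/6, a ratio per total count of 4.92 with an exact 95% interval of 1.83 to 16.6. Rps6-ps1 summed to 17 counts in DBA/2 and 4 in C57BL/6, a ratio of 4.55 (1.48 to 18.6). The intervals of Rpl5-ps1, with 13 counts in DBA/2 and 6 in C57BL/6 (ratio 2.32, 0.822 to 7.44), and of Rpl5-ps2, with 8 in DBA/2 and 2 in C57BL/6 (4.28, 0.854 to 41.4), included 1. The intervals cover counting error only and not the spread between libraries.

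Of the 22 called copies, 12 overlapped an intron or exon of another gene and 10 did not. Among all 54 tested copies, 23 had such an overlap. Zranb3, host of Rpl28-ps1, differed by 0.09 on the log2 scale, Trpm4, host of Rpl14-ps1, by 0.11, and Tecpr2, host of Rps19-ps6, by 0.11. Wwp2, host of Rps26-ps1, differed by 0.02, Lca5, host of Rps27a-ps2, by 0.05, and Nup93, host of Rpl10-ps5, by 0.14. None of these 6 hosts was called (adjusted p from 0.13 to 0.882, edgeR), while each of the copies was called higher. They belong to 6 of the 9 higher copies with a host. Tcf12, host of Rpl15-ps2, was not called, and Gm27288, which overlaps Rpl19-ps11, was not tested. Gm5148, which overlaps Rps23-ps1, was called lower (log2 fold change -0.78, adjusted p 9.13e-05, edgeR). Called hosts also occurred beside copies that were not called. Ddah1, host of Rpl36a-ps2, differed by -0.63 (adjusted p 6.38e-09, edgeR). 6030443J06Rik, host of Rpl17-ps5, differed by 1.61 (0.00012), and Pdzd8, host of Rps12-ps3, by -0.20 (0.0143). Whether host RNA adds to the counts of a copy was not tested.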

How the data were processed

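RNA of hippocampus was sequenced in 3 libraries of DBA/2 and 3 of C57BL/6 mice. TRIzol was used to extract total RNA and an NEBNext Ultra kit to make libraries, per the labels' protocols. Separate animals are not stated for the libraries of a strain, so p-values measure only the spread between libraries, part of which can be technical. The build GRCm38 and the tools HISAT2 2.0.1, Trimmomatic 0.30 and Cufflinks 2.2.1 come from the submitters' processing notes. Not given in the sources used here are the counting program, the annotation, the read length and the strand setting. The authors deposited raw counts per gene and FPKM values, and each FPKM equalled the count per kilobase of the deposited exonic length scaled to the library's total, within 0.005. In the table, 12 columns of per-sample values match no labelled sample and were not used. The values of 1 family are not reported here.

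Counts were tested with edgeR 4.0.16 in R 4.3.3 (quasi-likelihood F test, robust, TMM factors, filterByExpr by strain, Benjamini-Hochberg adjustment over all genes tested) and an adjusted p under 0.05 made a call. A positive log2 fold change is higher in DBA/2. The script was tested on simulated counts. Family sums add each copy to the gene named before -ps and were fitted the same way. Sequence families join non-overlapping genes with at least 10 counts whose longest GENCODE M21 transcripts align by BLAST 2.17.0 over at least 200 bases and 0.5 of the shorter one, with an identity of 95% or more. Identity comes from local alignment in Biopython 1.88, and 275 copies were found in GENCODE M21. Named copies are all called ones and the 10 with the most CPM, with their parents. Copies named for other reasons (identical copies, untested ones, Rps2-ps13, Rpl17-ps5) and the host genes were chosen after their values were seen. The copies, lists and tests were chosen with earlier results of these data known. Alternatives were other normalizations and filters, DESeq2 1.42.0, a fold threshold, a replicate block and leaving out each library.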

Additional observations from a re-analysis of the deposited data

How the results depend on the processing

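The 22 called copies numbered 18 to 24 without a filter, with library size alone or DESeq2 size factors, with the replicate block or in the DESeq2 Wald test, and 15 to 21 on leaving out 1 library. They numbered 7 with a mean of at least 5 CPM, which tests fewer genes, and 10 with an absolute log2 fold change of at least 1. The 16 called families became 7 with that fold threshold, lay between 15 and 20 on leaving out 1 library, and were 16 when joined by sequence, of which 4 were higher. The difference in copy share, 10.1 percentage points, lay between 9.73 and 10.3 on leaving out 1 library and was 9.85 per kilobase. It was 6.44 as a mean over families, 7.65 without the copy with the most counts, Rpl3-ps1, and 3.18 without the Rpl3 and Rpsa families. Of 571 recomputed values for 49 copies and parents, 522 kept direction and call, 45 lost the call, 4 gained it and 0 reversed. The parent Rps12, called higher at 0.42, lost its call in 9 settings, and Rpl17 gained one in 4.

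The labels do not say that replicate numbers pair the libraries, and no pairing was seen, though 6 libraries are too few to exclude one. Deviations of same-numbered libraries correlated at 0.132, -0.079 and 0.003, and 2 of 6 libraries correlated best with their own number. With the number as a block, 20 copies and 15 families were called. Copies with few counts are limited by depth, and how reads that match several genes were counted is not given in the sources used here, so levels of a copy and of its parent cannot be told apart for identical stretches.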
